A study of Mus musculus with 6 samples.

Results

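The Rab GTPases of mouse cortical neuron cultures were compared between cultures given preformed fibrils (PFF) of mouse α-synuclein and cultures given phosphate-buffered saline (PBS). Members were taken by symbol: every gene whose name is Rab followed by a number and, at most, 1 letter. Genes for proteins that interact with Rabs, such as Rab3gap1, Rab11fip1 and Rab3il1, were kept out. The rule found 59 genes among the 24411 of the table, and 50 of them had enough counts to be tested, against 13919 of all genes.

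Rabs are small GTPases that mark membranes and direct vesicle traffic. Exchange factors load them with GTP on a given membrane, GTPase-activating proteins switch them off, and effectors bind the GTP form to move, tether or fuse vesicles. In neurons Rab3 and Rab27 proteins act on synaptic vesicles and secretory granules, Rab5 and Rab7 act along the endolysosomal route, and several Rabs are substrates of LRRK2, a kinase mutated in Parkinson's disease. In macrophages and melanocytes, Rab7b, Rab20, Rab27a, Rab32 and Rab38 serve phagosomes and lysosome-related organelles.

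The cells came from the cortex of mouse embryos at day 18, and the labels name no strain, genotype or sex. PFF, aggregates assembled outside the cell that seed aggregation of the cell's own α-synuclein, went into the medium at 3.45 µM on culture day 10. RNA was harvested from both groups on culture day 18, 8 days later, and each group held 3 libraries. PBS is the only control treatment in the labels, so the comparison holds everything that was added with the fibrils, and nothing says whether the libraries are of separate cultures. A p-value here therefore sets a difference against the spread of these libraries alone, which could be technical.

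Totals ran from 9224963 to 10742381 estimated counts per library. The first principal component, with 49.2% of the variance, separated the groups, and the second, with 18.3%, set replicate 3 of both groups apart from the other libraries. All 15 neuronal markers were tested, and their summed level was 6779 to 7233 CPM (counts per 1000000 of the library total, scaled by TMM) in PBS and 7206 to 8090 in PFF. The cultures also held other cells. Markers of microglia and macrophages summed to 225 to 349 CPM in PBS and 644 to 775 in PFF. Of these 19 markers, 17 rose and none fell among 18 tested (median log2 fold change 1.35, range 0.26 to 2.09), and none was at 0 in all libraries. Of 12 oligodendrocyte-lineage markers 5 rose and 7 fell, and of 10 astrocyte markers 3 fell. Of 7 tested endothelial, pericyte and fibroblast markers none passed the test (3 at an unadjusted p under 0.05), with Cldn5 at 0 in all libraries. For scale, 3.98% of all tested genes rose and 2.6% fell at an adjusted p under 0.05 in edgeR.

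A stretch of sequence is shown for the 3 Rab genes that passed the test and for a paralog of each, to show how far their reads can be told apart. It is the coding sequence of the conserved switch II region, which changes shape on GTP binding, read from GENCODE vM21 transcripts on GRCm38. Capitals mark the bases that differ from the paralog on the neighbouring line, 12 of 75 for the Rab8 pair, 22 for the Rab7 pair and 15 for the Rab33 pair. Rab8b lies at chr9:66854734-66863424 (minus strand, with an intron inside) and Rab8a at chr8:72168486-72174537 (plus strand, with an intron inside). Rab7b lies at chr1:131698419-131698493 (plus) and Rab7 at chr6:88005134-88005208 (minus). Rab33a lies at chrX:48529658-48529732 (plus) and Rab33b at chr3:51493365-51493439 (plus).
Rab8b: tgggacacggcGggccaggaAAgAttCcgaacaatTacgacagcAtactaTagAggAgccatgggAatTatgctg
Rab8a: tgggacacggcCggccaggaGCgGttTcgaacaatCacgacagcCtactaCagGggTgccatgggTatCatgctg
Rab7b: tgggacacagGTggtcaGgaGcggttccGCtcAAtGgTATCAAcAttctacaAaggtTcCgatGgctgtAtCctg
Rab7: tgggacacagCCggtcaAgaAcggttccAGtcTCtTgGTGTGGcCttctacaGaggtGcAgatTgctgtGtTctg
Rab33a: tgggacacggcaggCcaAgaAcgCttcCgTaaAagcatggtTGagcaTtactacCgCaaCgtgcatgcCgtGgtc
Rab33b: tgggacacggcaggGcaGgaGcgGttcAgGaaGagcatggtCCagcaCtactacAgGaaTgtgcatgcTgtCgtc

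Over the whole coding sequence, Rab8b and Rab8a were 79.2% identical, Rab33a and Rab33b 68.7%, and Rab7b and Rab7 64.3%. The longest run of bases shared by a pair was 17, 16 and 18, far shorter than the 50-base words used to look for shared sequence. None of the 50-base words in the transcripts of Rab7b, Rab33a or Rab32 occurred in another gene's transcripts, and 5.37% of those of Rab8b did. In all, 43 of the 59 Rab genes shared under 1% of such words. Rab43 (74.5%, with Gm45140), Rab4b (58.1%, with Gm21983 among others) and Rab7 (11.2%, with the pseudogene Rab7-ps1 among others) shared over 10%, so their counts are uncertain.

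Few Rab transcripts were called as changed. At an adjusted p under 0.05, edgeR's quasi-likelihood test called Rab7b and Rab8b higher in PFF and Rab33a lower. The 2 higher calls are 4% of the 50 tested Rab genes, where 3.98% of all tested genes (554) were called higher. The 1 lower call is 2%, where 2.6% of all tested genes (362) were called lower, and in either direction the share of all tested genes was 6.58%. An unadjusted p under 0.05 was found for 9 Rab genes (18%: the 3 called, and Rab3d, Rab4b, Rab6a, Rab9, Rab26 and Rab32) and for 21.2% of all tested genes. In limma-voom the same 3 Rab genes were called and in DESeq2 Rab33a alone, so the counts of 0 for the classes below hold in both. The shares for the Rab genes thus lay near those of the whole table.

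For 7 tested Rab genes the lowest PFF library was above the highest PBS library (14%, against 13.4% of all tested genes). These were Rab7b, Rab8b, Rab11b, Rab14, Rab32, Rab33b and Rab35. For another 7 the highest PFF library was below the lowest PBS library (14%, against 11.6%), namely Rab3d, Rab4b, Rab8a, Rab9, Rab26, Rab30 and Rab33a. For the other 36 the groups overlapped. The log2 fold changes of tested Rab genes ran from −0.65 to 0.60 with a median of −0.01, against a median of 0.00 for all tested genes (−0.00056 unrounded).

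The precision was enough to bound most of the genes that were not called. Of these 47 genes, 44 had a 95% interval of the fold change, from the edgeR fit and not adjusted for the number of genes, that lay inside 1.5-fold in both directions. The intervals of Rab26, Rab32 and Rab39 reached past 1.5-fold. The width on either side of the estimate had a median of 0.18 on the log2 scale and ran from 0.15 to 0.55.

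**Figure D1:**
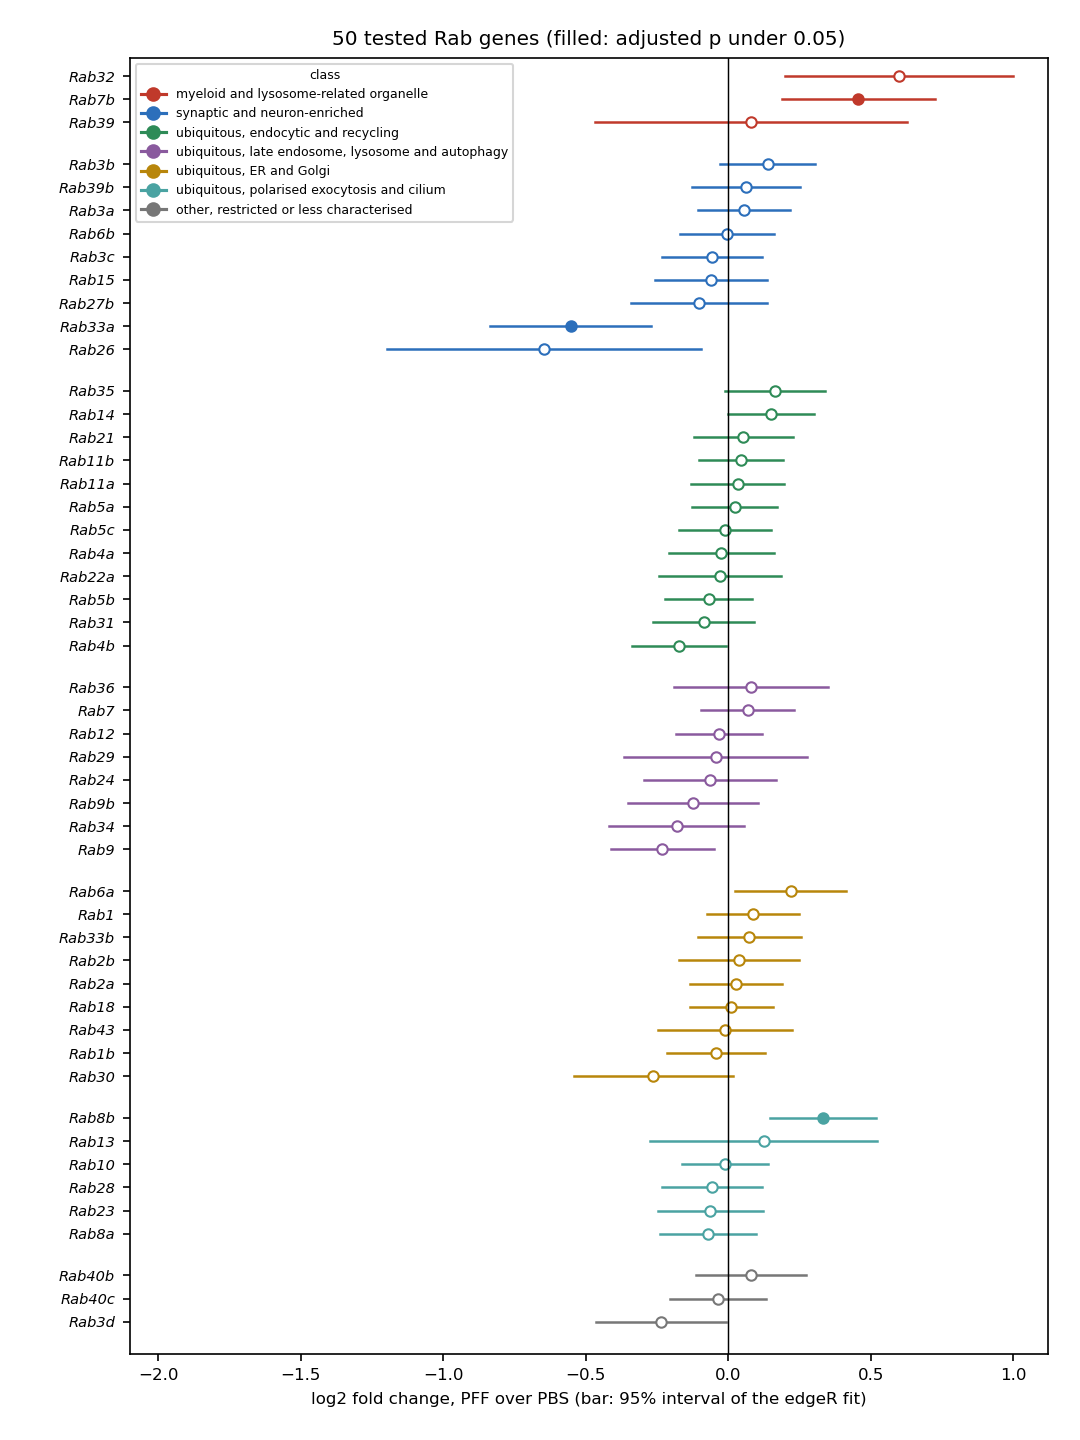
Log2 fold change, PFF over PBS, of the 50 tested Rab genes by class, with 95% intervals from the edgeR fit (n = 3 per group). Filled points passed an adjusted p under 0.05 (Rab7b and Rab8b higher, Rab33a lower), and the point estimates ran from −0.65 to 0.60.

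The myeloid and lysosome-related class held 7 members, of which Rab7b, Rab32 and Rab39 were tested. Rab7b, which acts between late endosomes and the trans-Golgi network and limits Toll-like receptor signalling in macrophages, lies on chromosome 1 from 131688695 to 131715439. It stood at 14.3, 11.3 and 13.3 CPM in PBS 1 to 3 and at 19.3, 16.1 and 17.9 CPM in PFF 1 to 3. Every PFF library was above every PBS library, and the lowest PFF library stood close to the highest PBS library. The mean rose from 12.96 ± 1.49 to 17.8 ± 1.56 CPM (SD, n = 3), a log2 fold change of 0.46 ± 0.12 (SE; 95% interval 0.19 to 0.72; edgeR adjusted p = 0.0446). This call was lost without any 1 of PBS 1, PBS 2, PBS 3, PFF 1 or PFF 2, with adjusted p from 0.0720 to 0.168.

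Rab32, which builds lysosome-related organelles together with Rab38, lies on chromosome 10 from 10545002 to 10558265. It was at 4.33, 3.01 and 4.04 CPM in PBS and at 5.68, 5.87 and 5.63 CPM in PFF. The PFF libraries lay close together and all above PBS, with PBS 2 the lowest. Its log2 fold change of 0.60 ± 0.19 was the largest positive one among the tested Rab genes but missed the threshold (interval 0.20 to 1.00; adjusted p = 0.0760). With replicate 3, which stood apart in both groups, as a batch term, Rab32 was called higher (0.60; adjusted p = 0.0393). That fit called 14.4% of all tested genes, against 6.58% in the main fit. Rab39, the Rab39a gene of phagosomes and autophagy, was at 1.95, 3.01 and 2.21 CPM in PBS and at 2.696, 2.84 and 2.07 CPM in PFF. The groups overlapped (0.08 ± 0.25; adjusted p = 0.897).

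The other 4 members of this class had too few counts to be tested. Rab20, a Rab of phagosome maturation, had 1, 3 and 4 counts in PBS and 6, 10 and 8 in PFF, so the groups did not overlap. Of its exonic bases, 25.6% lie inside E230013L22Rik on the opposite strand. With no filter on low counts it reached 1.501 ± 0.595 on the log2 scale, with an adjusted p of 0.152. Rab27a, which docks secretory granules and melanosomes, had 2, 6 and 12 counts in PBS and 15, 9 and 9 in PFF (0.67 ± 0.47 with no filter; adjusted p = 0.511). Rab38 and Rab44, the latter a large Rab of immune cells, had at most 4 and 2 counts in any library.

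Summed over its 7 members, this class stood at 18.6 to 21.2 CPM in PBS and 27.0 to 30.0 in PFF. Per kilobase of exon it made up 0.287 ± 0.0192% of all Rab transcripts in PBS and 0.400 ± 0.0217% in PFF (SD, n = 3). Most of the summed CPM was Rab7b (mean 12.96 in PBS and 17.8 in PFF), so the sum does not stand for all members. Of the 3 tested members, too few to give a share for the class, 1 was called higher, against 3.98% of all tested genes. Their median log2 fold change was 0.46. The microglia and macrophage markers moved in the same direction by a median of 1.35. Their part in the values of Rab7b and Rab32 was not tested, and in bulk RNA more cells of a type and more RNA per cell cannot be told apart. The 6 melanocyte and neural crest markers summed to 5.04 to 7.03 CPM in PBS and 7.03 to 8.39 in PFF, most of it Mitf, which was higher in every PFF library but was not called (0.37 ± 0.19; adjusted p = 0.290). The defining melanocyte genes were low: no library held more than 1 count of Tyrp1 or Mlana, 5 of Tyr, 8 of Dct or 11 of Pmel.

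**Figure D2:**
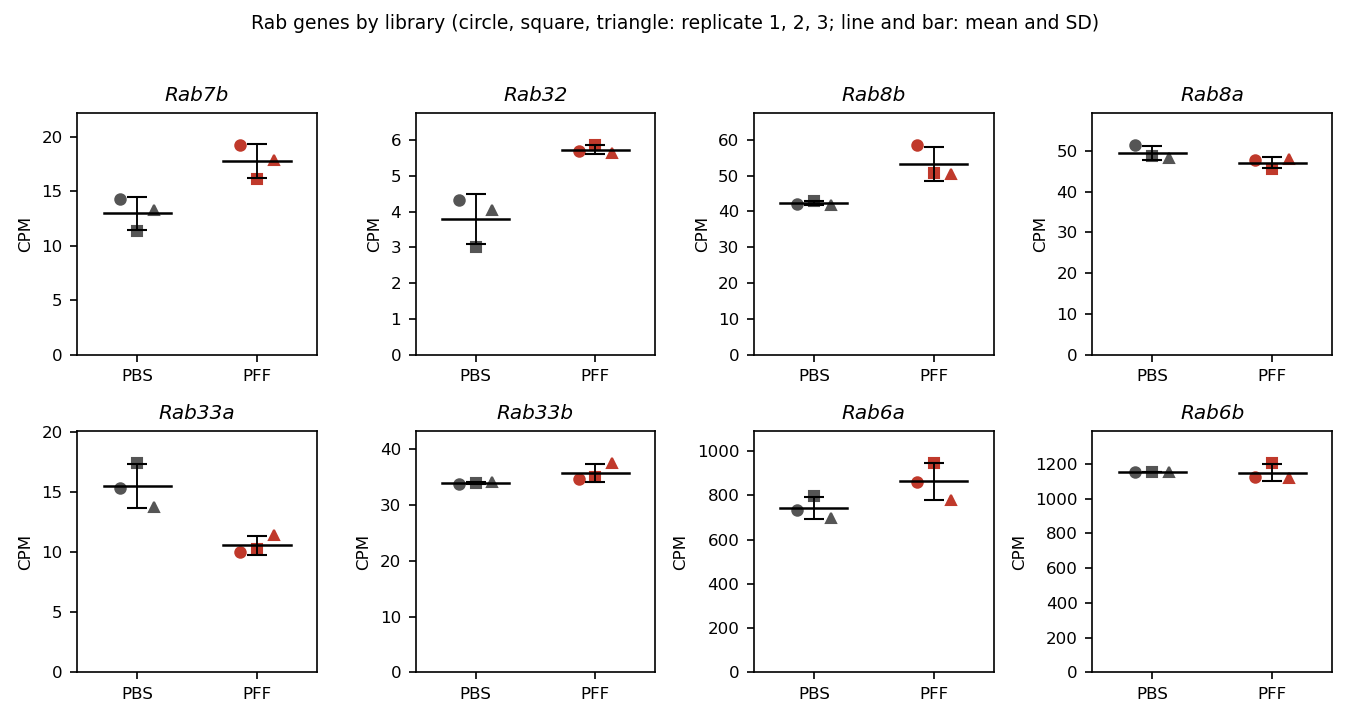
CPM of Rab7b, Rab32, Rab8b, Rab8a, Rab33a, Rab33b, Rab6a and Rab6b in each library (points), with the mean and SD of the 3 libraries per group, on linear axes from 0. Rab7b stands at 11.3 to 14.3 in PBS and 16.1 to 19.3 in PFF, whereas the Rab6b libraries of both groups overlap between 1116 and 1207.

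The synaptic and neuron-enriched class held 9 genes, all tested (median log2 fold change −0.06). Of these, 1 was called lower and none higher (11.1% called, against 6.58% of all tested genes). The call was Rab33a, a Rab of post-Golgi vesicles in growing axons, on the X chromosome from 48519285 to 48530232. It was at 15.4, 17.5 and 13.7 CPM in PBS and at 10.0, 10.3 and 11.5 CPM in PFF, every PFF library below every PBS library. The mean fell from 15.5 ± 1.86 to 10.6 ± 0.769 CPM (log2 fold change −0.55 ± 0.13; interval −0.83 to −0.27; adjusted p = 0.0228). The call was lost without PBS 1, PBS 2, PFF 1 or PFF 2, with adjusted p from 0.0720 to 0.107.

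Rab26, which brings synaptic vesicles to autophagosomes, had the most negative estimate of all tested Rab genes. It was at 3.03, 2.62 and 2.79 CPM in PBS and at 1.35, 2.25 and 1.78 CPM in PFF. All PFF libraries were lower, with PFF 1 the lowest, but the gene lay near the lower limit of the test (−0.65 ± 0.26; interval −1.20 to −0.09; adjusted p = 0.166). Of the exonic bases of Rab26, 9.36% lie inside Traf7 on the same strand.

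The abundant Rabs of the synapse moved little. Rab3a, the main synaptic vesicle Rab, was at 414, 412 and 399.7 CPM in PBS and at 409.9, 451 and 414 CPM in PFF (0.06 ± 0.08; adjusted p = 0.720). Rab3c was at 863, 929 and 951 CPM in PBS and at 862, 938 and 838 CPM in PFF (−0.06 ± 0.08; adjusted p = 0.743). The groups overlapped for both. Rab3b had the smallest unadjusted p of the abundant members (0.14 ± 0.08; adjusted p = 0.329), and Rab27b, a Rab of regulated secretion, gave −0.10 ± 0.11 (adjusted p = 0.645).

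Rab6b, the brain form of the Golgi Rab6, was the most abundant Rab per length in PBS, at 1151, 1154 and 1153 CPM. In PFF it was at 1126, 1207 and 1116 CPM, around the PBS values on both sides (0.00 ± 0.08; adjusted p = 0.982). Rab15, an endosomal Rab of neurons, and Rab39b, whose loss causes an inherited early parkinsonism, gave −0.06 ± 0.09 and 0.06 ± 0.09. The class as a whole summed to 2789 to 2873 CPM in PBS and 2738 to 2986 in PFF. Its share of Rab transcripts per kilobase was 29.6 ± 0.112% in PBS and 29.1 ± 0.523% in PFF. Of the 15 neuronal markers, 3 rose (Nefm, Slc17a6 and Syt1) and none fell (20% called, against 6.58% of all tested genes; median 0.21).

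The Rabs classed as broadly expressed numbered 36, among them Rab19 with at most 2 counts in a library here. All but Rab19, 35 genes, were tested (median −0.01). Of these, 1 was called higher and none lower (2.86% called, against 6.58% of all tested genes). The call fell in the class of polarised exocytosis and the cilium. Rab8b, which carries post-Golgi vesicles to the plasma membrane, lies on chromosome 9 from 66843664 to 66919687. It was at 42.1, 43.0 and 41.8 CPM in PBS and at 58.6, 50.8 and 50.4 CPM in PFF. The PBS libraries were nearly equal, all PFF libraries were higher, and PFF 1 was the highest. The mean rose from 42.3 ± 0.599 to 53.3 ± 4.67 CPM (log2 fold change 0.33 ± 0.09; interval 0.15 to 0.52; adjusted p = 0.0347). Without any 1 of PBS 1, PBS 2, PBS 3, PFF 1 or PFF 2 it was not called, with adjusted p from 0.0722 to 0.168.

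Its paralog Rab8a was at 51.5, 48.8 and 48.4 CPM in PBS and at 47.8, 45.6 and 48.0 CPM in PFF. All PFF libraries were slightly lower (−0.07 ± 0.08; adjusted p = 0.654). Of the other members, Rab10, the Rab of glucose transporter delivery and the most abundant of the class, gave −0.01 ± 0.07 (adjusted p = 0.953). Rab23, which acts on Hedgehog signalling at the cilium, gave −0.06 ± 0.09, Rab28 gave −0.06 ± 0.08, and Rab13, a Rab of cell junctions, gave 0.12 ± 0.18.

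Among the 12 endocytic and recycling Rabs no call was made (median 0.01). Rab35, which recycles cargo to the plasma membrane, was at 68.8, 69.1 and 61.6 CPM in PBS and at 69.3, 77.2 and 76.8 CPM in PFF. The groups were apart only by the small step from PBS 2 to PFF 1 (0.16 ± 0.08; adjusted p = 0.271). Rab14, between Golgi and endosomes, was at 260, 264 and 264 CPM in PBS and at 293, 299.7 and 282 CPM in PFF. It was higher in all PFF libraries (0.15 ± 0.07; adjusted p = 0.245). Rab4b, a Rab of fast recycling whose counts are uncertain, was lower in all PFF libraries (60.2 to 66.2 CPM, against 70.3 to 74.7 in PBS; −0.17 ± 0.08; adjusted p = 0.213).

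The early endosome Rabs, at which endocytosed cargo first arrives, were near 0 in all 3 forms. Rab5a gave 0.02 ± 0.07, Rab5b −0.07 ± 0.07 and Rab5c −0.01 ± 0.07, with adjusted p of 0.895, 0.636 and 0.950. The recycling endosome Rabs Rab11a and Rab11b gave 0.03 ± 0.08 and 0.04 ± 0.07. Rab31, a Golgi-to-endosome Rab, gave −0.09 ± 0.08 (adjusted p = 0.598). The other 3 members, Rab4a, Rab21 and Rab22a, lay between −0.03 and 0.05.

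No call was made among the 8 Rabs of late endosomes, lysosomes and autophagy either (median −0.05). Rab7, the central Rab of late endosomes, was at 399, 394 and 369.5 CPM in PBS and at 406, 426 and 387 CPM in PFF, with overlapping groups (0.07 ± 0.08; adjusted p = 0.657). Rab9, which returns cargo from late endosomes to the Golgi, was at 43.8, 43.6 and 44.8 CPM in PBS and at 39.96, 37.4 and 35.3 CPM in PFF. It was lower in every PFF library (−0.23 ± 0.08; interval within 1.5-fold; adjusted p = 0.129). When replicate 3 entered as a batch, Rab9 was called lower (adjusted p = 0.0451), in a fit that called 14.4% of all tested genes. Rab34, which positions lysosomes, gave −0.18 ± 0.11, Rab9b −0.13 ± 0.11 and Rab12 −0.03 ± 0.07. Rab36 gave 0.08 ± 0.13, and Rab24, a Rab linked to autophagy, gave −0.06 ± 0.11. The Rab24 value is uncertain, since 62.4% of its exonic bases lie inside Prelid1 on the opposite strand.

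The 10 Rabs of the endoplasmic reticulum and Golgi gave no call among 9 tested (median 0.03). Rab6a, the Golgi Rab of retrograde transport, was at 732, 795 and 697 CPM in PBS and at 859.7, 948 and 781 CPM in PFF. The groups overlapped, since PFF 3 lay below PBS 2, and replicate 3 was the lowest library in both groups (0.22 ± 0.09; adjusted p = 0.183). With replicates 1 and 2 only, Rab6a was called higher (0.25; adjusted p = 0.0256), and without PFF 3 (0.29; adjusted p = 0.0318) or when replicate 3 entered as a batch (0.22; adjusted p = 0.0461) it was too. These fits called 17.2%, 13.2% and 14.4% of all tested genes, against 6.58% in the main fit. Of the exonic bases of Rab6a, 19.0% lie inside Mrpl48 on the opposite strand.

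The class summed to 1733 to 1834 CPM in PBS and 1840 to 2015 in PFF. Its share of Rab transcripts per kilobase was 26.7 ± 0.379% in PBS and 28.1 ± 0.350% in PFF. Most of the difference in both came from Rab6a, which was not called (mean 741 CPM in PBS and 863 in PFF). The sum and the share thus do not stand for the class. Rab30, a Golgi Rab, was lower in all PFF libraries (10.1 to 11.1 CPM in PBS, 8.69 to 9.05 in PFF; −0.26 ± 0.13; adjusted p = 0.263). Rab1, which carries vesicles from the endoplasmic reticulum to the Golgi, gave 0.09 ± 0.07, and Rab2a, which acts in the opposite direction, gave 0.03 ± 0.07. Rab1b gave −0.04 ± 0.08 and Rab18, a Rab of lipid droplets and the endoplasmic reticulum, 0.01 ± 0.07. Rab2b gave 0.04 ± 0.10, with 64.0% of its exonic bases inside Tox4 or Gm43766 on the opposite strand. Rab33b, the Golgi paralog of Rab33a, was at 33.9, 33.9 and 34.2 CPM in PBS and at 34.8, 35.01 and 37.6 CPM in PFF. It was slightly higher in every PFF library (0.07 ± 0.08; adjusted p = 0.671), where Rab33a was lower. Rab19 of this class had 0, 2 and 1 counts in PBS and 0 in each PFF library.

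Of the 7 remaining Rabs, of restricted or less known function, 3 were tested and none was called. Rab3d, a Rab of exocrine granules, was at 20.1, 23.8 and 22.8 CPM in PBS and at 20.03, 18.8 and 17.9 CPM in PFF. The groups were apart by a small step between PBS 1 and PFF 1 (−0.24 ± 0.11; adjusted p = 0.220). Rab40b and Rab40c, which belong to ubiquitin ligase complexes, gave 0.08 ± 0.09 and −0.04 ± 0.08. The epithelial Rabs Rab17 and Rab25 had at most 2 counts in a library and Rab37 had 2 to 6. Rab42 had 2, 2 and 1 counts in PBS and 0 in each PFF library. With no filter on low counts, edgeR gave Rab42 an unadjusted p of 0.0302 (adjusted p = 0.220) and Rab19 an adjusted p of 0.405. With at most 2 counts in any library, no fold is given for either.

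The order of Rab levels was set per kilobase of exon. In PBS, Rab6b led at 229 ± 0.35 CPM per kilobase (SD, n = 3), followed by Rab6a (199 ± 13.3), Rab3a (184 ± 3.54), Rab7 (148 ± 6.02), Rab2a (129 ± 6.48) and Rab5c (88.0 ± 5.84). In PFF, Rab6a (231 ± 22.4) and Rab6b (228 ± 9.89) stood within their spread of each other, with Rab3a next (191 ± 10.3). The myeloid Rabs were at the low end: Rab7b was at 2.80 CPM per kilobase in PBS, Rab32 at 1.62 and Rab39 at 0.804. Rab8b (8.93) and Rab33a (13.4) lay between.

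**Figure D3:**
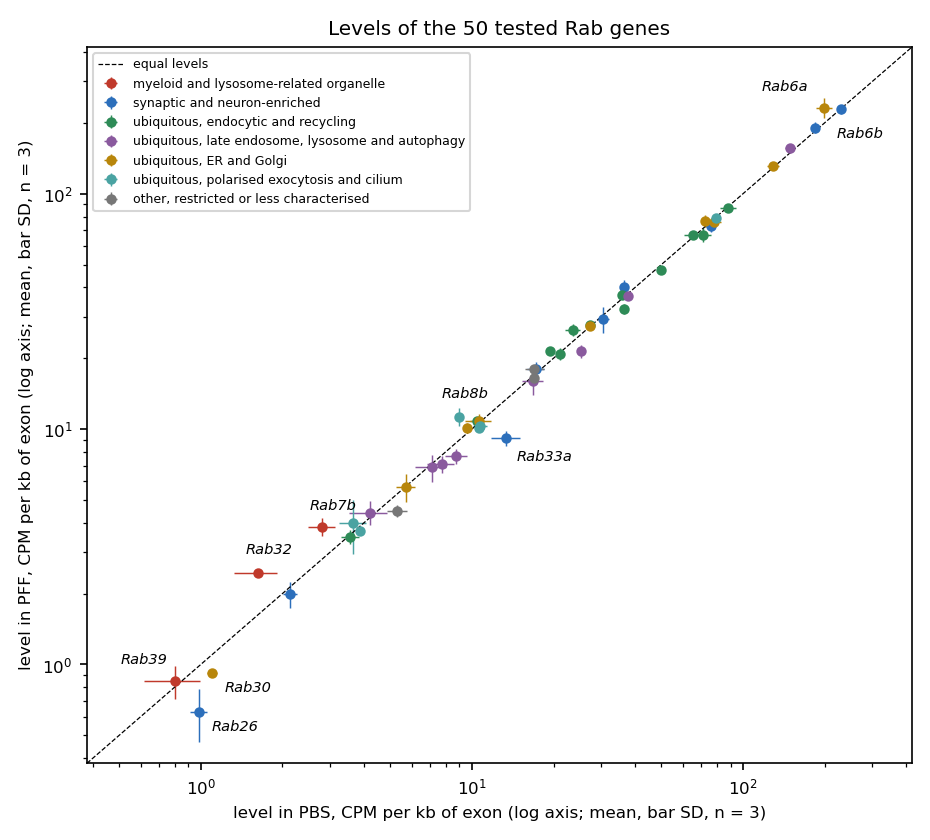
Mean CPM per kilobase of exon of each of the 50 tested Rab genes in PBS (horizontal) and PFF (vertical), with bars for the SD of 3 libraries, both axes logarithmic, coloured by class, with the line of equal level. Most genes lie on or near the line from Rab39 (0.804 in PBS) to Rab6b (229 in PBS), with Rab7b, Rab32 and Rab8b above it and Rab33a and Rab26 below.

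Ratios of paralogs within a library do not depend on the scaling between libraries, and 8 pairs were compared. The ratio of Rab8b to Rab8a was 0.808, 0.870 and 0.855 in PBS and 1.21, 1.10 and 1.04 in PFF, so Rab8a was the more abundant by CPM in PBS and Rab8b in PFF. The ratio of Rab33a to Rab33b was 1.39, 1.57 and 1.23 in PBS and 0.880, 0.896 and 0.930 in PFF, again without overlap. The ratio of Rab7b to Rab7 lay between 0.0163 and 0.0203 in PBS and between 0.0214 and 0.0268 in PFF. That of Rab6a to Rab6b lay between 0.815 and 0.930 in PBS and between 0.944 and 1.06 in PFF. For these 4 pairs the exact two-sided permutation test gave p = 0.1, the smallest p that 3 against 3 libraries allow, so no ratio could pass 0.05. The 4 pairs Rab3a to Rab3c, Rab9 to Rab9b, Rab4b to Rab4a and Rab39 to Rab39b gave exact p from 0.2 to 0.8, and p adjusted over the 8 pairs ran from 0.2 to 0.8. The pairs with Rab8b, Rab7b and Rab33a hold a called gene, so their difference is not independent of that call.

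Of the 14 Rabs known as LRRK2 substrates, all were tested, 1 (Rab8b) was called higher and none lower (7.14%, against 6.58% of all tested genes called either way and 3.98% called higher). Their median log2 fold change was −0.01. Rab29, which can recruit LRRK2 to membranes, gave −0.04 ± 0.15, and Rab43, whose counts are uncertain, −0.01 ± 0.11. Lrrk2 itself was at 11.8, 10.9 and 10.5 CPM in PBS and at 8.95, 8.80 and 8.69 CPM in PFF. It was lower in every PFF library but was not called (−0.32 ± 0.13; adjusted p = 0.171).

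The proteins that switch Rabs on and off were called about as often as other genes. Of 35 exchange factors, 33 were tested, 2 rose and none fell (6.06% called, against 6.58% of all tested genes; median 0.00). Rab3il1, an exchange factor for Rab3a and Rab8 proteins, was at 4.98, 2.91 and 3.75 CPM in PBS and at 7.895, 7.53 and 8.295 CPM in PFF. All PFF libraries were well above PBS (1.04 ± 0.19; adjusted p = 0.0046). Dennd1c, which acts on Rab35 and is enriched in blood cells, was at 0.865, 0.485 and 0.288 CPM in PBS and at 1.73, 1.37 and 1.58 CPM in PFF (1.52 ± 0.40; adjusted p = 0.0365). The PBS libraries of Dennd1c lay below the limit of the low-count filter. It was tested only through its PFF libraries, so its place among the tested genes depends on its rise. The Rab5 exchange factor Rabgef1 (0.28 ± 0.08; adjusted p = 0.0585) was not called. Nor was Rab3gap1 (0.22; adjusted p = 0.105), listed here for exchange activity on Rab18 and not among the GTPase-activating proteins.

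All 34 listed GTPase-activating proteins were tested, 2 rose and 1 fell (8.82% called, against 6.58%; median 0.00). Sgsm2, which acts on Rab32 among others, was at 351, 317 and 336 CPM in PBS and at 219, 241 and 265 CPM in PFF. Every PFF library was well below every PBS library (−0.47 ± 0.08; adjusted p = 0.0039). Tbc1d30, which acts on Rab8 proteins, rose by 0.44 ± 0.11 (adjusted p = 0.0256), and Tbc1d5, a Rab7 regulator of the retromer, by 0.34 ± 0.09 (adjusted p = 0.0333). Tbc1d22a, next by p, was not called (0.27; adjusted p = 0.126). Tbc1d30 was not called without PBS 1, PBS 3, PFF 1 or PFF 2 (adjusted p from 0.0659 to 0.160), nor Tbc1d5 without any 1 of the PBS libraries, PFF 1 or PFF 2 (0.0550 to 0.169). The calls of Rab3il1 and Sgsm2 held without any 1 library.

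Of 18 synaptic and granule effectors, 13 were tested, none rose and 1 fell (7.69% called; median −0.03). The one was Sytl5, a Rab27 effector, at 2.60, 2.81 and 2.31 CPM in PBS and 1.155, 1.37 and 0.889 CPM in PFF (−1.17 ± 0.28; adjusted p = 0.0235). All PFF libraries were below all PBS libraries. PFF 3 of Sytl5 lay below the limit of the low-count filter, which needs 3 libraries. The place of Sytl5 among the tested genes thus depends on its higher PBS libraries. Next by p came Sytl2, also a Rab27 effector (0.60; adjusted p = 0.135), the synapsin Syn1 (0.24; adjusted p = 0.188) and rabphilin, Rph3a (−0.18; adjusted p = 0.237), none of them called. Of 34 endosomal and lysosomal effectors, 33 were tested, none rose and 1, the Rab5 effector Appl2, fell (−0.38 ± 0.10; adjusted p = 0.0418; 3.03% of the list called; median of the list 0.07). Osbpl1a, a Rab7 effector, gave 0.27 (adjusted p = 0.0580) and Fyco1, which links Rab7 to kinesin, −0.24 (adjusted p = 0.153). The 7 genes of Rab prenylation and membrane extraction gave no call in edgeR (1 at an unadjusted p under 0.05; median 0.14), and their summed level was 1122 to 1148 CPM in PBS and 1192 to 1207 in PFF. Nearest to the threshold was Chml, an escort protein (0.35; adjusted p = 0.0977). The summed level of the GTPase-activating proteins went the other way, from 2444 to 2512 CPM in PBS and from 2356 to 2417 in PFF. That sum holds the fall of the abundant Sgsm2. Of the 34 genes, 18 had a positive log2 fold change, so the sum does not stand for the list. The summed levels of the exchange factors and of both effector lists overlapped between the groups. The calls of Dennd1c, Sytl5 and Appl2 depended on single libraries and on the method. Dennd1c was lost without PBS 2, PBS 3, PFF 1 or PFF 2, in DESeq2 (adjusted p = 0.0984) and with replicates 1 and 2 only (0.0796). Sytl5 was lost without PBS 1, PBS 2, PFF 1 or PFF 2 and in DESeq2 (0.0716). Appl2 was lost without the same 4 libraries, in limma-voom (0.0524), with library-size scaling only (0.0881) and with at least 50 counts in 3 libraries (0.0523).

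**Figure D4:**
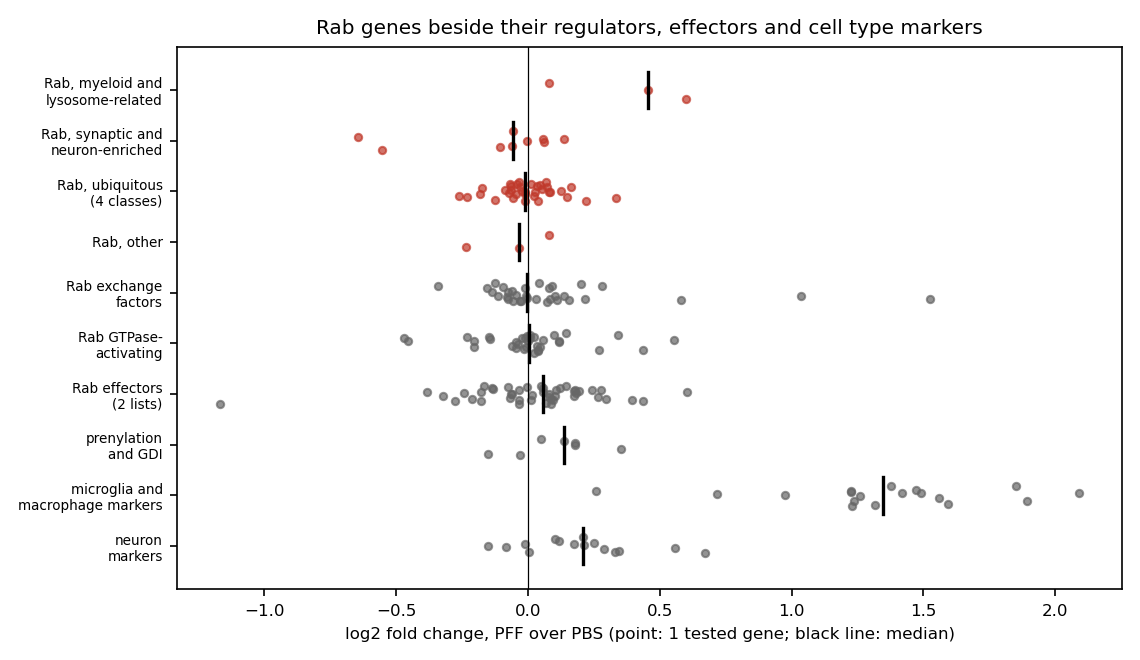
Log2 fold change, PFF over PBS, of each tested gene of the Rab classes, their exchange factors, GTPase-activating proteins, effectors and prenylation genes, and of microglia and neuron markers, with the median of each list as a line. The medians of the other Rab lists, regulators and effectors lie between −0.06 and 0.07, those of the prenylation genes and of the 3 tested myeloid Rabs at 0.14 and 0.46, and the microglia markers centre at 1.35.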

How the data were processed

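Per the labels' protocols, total RNA was column-purified and made into strand-marking libraries. The authors deposited estimated counts per gene, of which 8.69% are not whole. The submitters' processing notes name STAR 2.7.9a, Trim Galore 0.6.6, DESeq2 1.38.3 and mm10. Which quantifier, strand setting and annotation they used is not given in the sources used here, so reads of overlapping genes may have been shared. Counts were rounded. In R 4.3.3, edgeR 4.0.16 kept genes by filterByExpr, normalised by TMM and ran a robust quasi-likelihood F-test with the group as the only term, two-sided, with Benjamini-Hochberg adjustment over 13919 genes. An error after ± is the SE of a log2 fold change or, for levels, the SD over 3 libraries. Positions, lengths and coding sequences came from GENCODE vM21, on the same assembly as mm10. In simulated data for this comparison, run on 13823 genes, 41 of 50 genes changed 1.5-fold and 9 of 49 changed 1.25-fold were recovered. Every simulated gene had the same dispersion (0.0064) and replicate 3 had no effect of its own, so recovery in the real libraries may be lower. The Rab genes and all lists were chosen with earlier results of these data known. Genes named are those called, up to 4 per class or list with the smallest unadjusted p, and the 2 most abundant per class. Melanocyte, astrocyte, oligodendrocyte and endothelial markers were checked as well. Alternatives covered the normalisation, filter, tool (DESeq2 1.42.0, limma 3.58.1), threshold, replicate block, replicate 3 and each library left out.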

Additional observations from a re-analysis of the deposited data

How the results depend on the processing

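The number of genes called (916) was 414 at an adjusted p under 0.01, 1997 with a replicate block, 2005 with replicate 3 as a batch term and 2394 with replicates 1 and 2 only. Leaving out 1 library gave 412 to 1858 (fewest without PFF 2, most without PFF 3). The number of Rab genes called higher (2) was 1 with upper-quartile scaling (Rab7b lost, adjusted p = 0.0544), 1 with at least 50 counts in 3 libraries, 0 in DESeq2, 0 at an adjusted p under 0.01, and 4 with the replicate block or the batch term, where Rab32 and Rab6a were added. Leaving out 1 library gave 0 to 3 higher and 0 to 1 lower. The number lower (1) was 0 at an adjusted p under 0.01 and 2 with the batch term, which added Rab9. The cause of these changes was not tested. Same-numbered libraries deviated together only weakly (correlations 0.0919, 0.109 and 0.202). Libraries with unlike numbers gave −0.207 to 0.128. On these values the numbers were not taken to pair samples in the main fit. The second principal component still set replicate 3 of both groups apart, and the block and batch fits above allow for that. Rab7b kept its direction at 0.36 to 0.53, Rab8b at 0.26 to 0.37 and Rab33a at −0.69 to −0.46 under every alternative run. Signs near 0 turned: Rab10 was 0.020 with library size only and 0.025 with replicates 1 and 2, Rab6b 0.025 and 0.023, and Rab5c 0.017 with library size only. With 1 library left out, Rab10 ran from −0.0307 to 0.0094, Rab5c from −0.0647 to 0.025, Rab6b from −0.0402 to 0.017, Rab2a from −0.0152 to 0.0561 and Rab39 from −0.0414 to 0.28. Depth limited the 9 untested Rab genes, with at most 15 counts in a library.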
